A study of Mus musculus with 24 samples.

Results

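Striatum and cortex of R6/2 mice at 12 weeks of age were compared with each other, to ask how much of the difference between the tissues was present in the mutant brain. The 3 R6/2 striatum samples and the 3 R6/2 cortex samples were chosen by the genotype, tissue and age in their labels, and they make up 6 of the 24 samples of the series. R6/2 mice express exon 1 of human HTT, with a long CAG repeat, from the human HTT promoter and are a fast-progressing model of Huntington's disease. The animals were on a C57Bl/6 / CBA background, as were the wild-type mice of the series. The same contrast was read in the 3 striatum and 3 cortex samples of wild-type mice at 12 weeks, which share no library with the R6/2 comparison. The 6 wild-type samples at 8 weeks served to choose tissue-enriched genes, and the 6 R6/2 samples at 8 weeks were only described. The measurement was strand-specific sequencing of polyadenylated RNA from frozen tissue. The labels state neither the sex of the mice nor whether a sample was a single animal or a pool. At 12 weeks no number in the sample names occurs in both tissues, so nothing pairs a striatum with a cortex. Whether the 3 samples of each group are separate mice is not said. A p-value here therefore refers to the spread among the samples alone, and that spread may be technical.

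The striatum is built mostly of GABAergic projection neurons, the medium spiny neurons. Those of the direct pathway express the dopamine receptor Drd1 with substance P and dynorphin, and those of the indirect pathway express Drd2 with the adenosine receptor Adora2a and enkephalin. The cortex is built mostly of glutamatergic pyramidal neurons arranged in layers, each with its own transcription factors. Striatal projection neurons and the cortical neurons that project to them are the cells most affected in Huntington's disease, and striatal signalling genes are known to lose expression in its mouse models.

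Counts in genes came to 15.9, 17.8 and 42.8 M in the R6/2 striatum libraries and to 30.6, 47.7 and 22.8 M in the R6/2 cortex libraries (replicates 1 to 3 of each). Gm12695, the locus that the transgene disrupts, was read 24 to 147 times in every R6/2 library used here and at most 2 in any wild-type library of this age. The defining genes of both tissues were present: Drd1 lay at 20.2 to 34.1 RPKM (reads scaled to gene length and library total) in R6/2 striatum, and the vesicular glutamate transporter Slc17a7 at 100 to 111 RPKM in R6/2 cortex. Markers of other brain regions were also read in both tissues. The 15 measured markers of hypothalamus or septum summed to 77.9, 19.96 and 14.1 RPKM in R6/2 striatum and to 9.44, 14.6 and 7.75 RPKM in R6/2 cortex. The 9 thalamus markers summed to 86.4, 48.3 and 22.7 RPKM in striatum and to 28.8, 46.7 and 32.2 RPKM in cortex. Striatal replicate 1 thus had the highest sums of both lists, and it was the library with almost no Slc17a7 (0.248 RPKM, against 20.1 and 31.3 in replicates 2 and 3). The relation of each library's levels to the GC content of its genes also moved with tissue: across genes it was -0.597, -0.294 and -0.0054 in the striatum libraries and 0.284, 0.417 and 0.429 in the cortex libraries (Pearson's r of the deviation from the mean of all 24 libraries). The deposited gene lengths were shorter in striatal replicate 3 and cortical replicate 2 than in the other libraries, 1 in each tissue. The part of these differences in the results below was not tested except where a value without a library, or with the GC trend removed, is given.

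Among 11738 genes with a mean of at least 0.5 RPKM over the 6 libraries, 1721 were higher in R6/2 striatum and 1351 higher in R6/2 cortex (edgeR's quasi-likelihood test, Benjamini-Hochberg adjusted p under 0.05, termed called here). These are 14.7% and 11.5% of the genes tested, the background against which the counts of each gene group are read. A difference of at least 4-fold was called for 146 genes higher in striatum and 115 higher in cortex, and one of at least 8-fold for 37 and 31. In wild type, 1186 of 11715 genes (10.1%) were called higher in striatum and 1166 (9.95%) higher in cortex. There, 187 and 214 genes passed 4-fold, and 78 and 52 passed 8-fold. The R6/2 comparison thus held more calls and fewer of at least 4-fold, and the difference between these counts was not tested. With the trend of each library on the GC content and length of genes removed, the order of the calls turned, with 2326 in R6/2 and 2802 in wild type. Of the genes called higher in striatum, 734 were called in both genotypes, which is 42.65% of the R6/2 calls and 61.89% of the wild-type calls. Of those higher in cortex, 649 were called in both (48.04% and 55.66%). With that correction, 1667 of the 3072 R6/2 calls were made again, and 792 were made in every fit that left out a library. Leaving out cortical replicate 1, 2 or 3 lowered the number of calls to 1380, 1094 and 939. Upper-quartile scaling, which moved the median log2 fold change of all genes to -0.08, gave 1346 genes higher in striatum and 1572 higher in cortex.

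Genes enriched in a tissue were defined in the wild-type mice at 8 weeks, with at least a 4-fold difference and an adjusted p under 0.05, which gave 128 striatum-enriched and 70 cortex-enriched genes. None of those libraries enters either comparison at 12 weeks, but the list holds by construction only genes that separate the tissues in wild type. Of the 128 striatum-enriched genes, 106 passed the expression minimum in R6/2 and 65 of these were called higher in striatum, with none called higher in cortex. Their median log2 fold change (striatum over cortex) was 1.71, beside 0.02 over all genes tested. In wild type at 12 weeks, 97 of 114 tested were called higher in striatum and 1, Igflr1, higher in cortex, and the median was 2.82. The 22 members that missed the minimum in R6/2 had group means of at most 0.751 RPKM, and 12 of them passed it in wild type. With no minimum, all 128 gave a median of 1.73 in R6/2 and 2.73 in wild type, and 70 were called in R6/2. The list is not pure: it holds Ttr and Folr1, markers of choroid plexus, as well as neuronal genes.

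Of the 70 cortex-enriched genes, 67 were tested in R6/2, and 38 were called higher in cortex and none higher in striatum. Their median log2 fold change was -1.67 in R6/2. In wild type, 53 of 68 were called, with a median of -2.26. Among members tested in both genotypes the tissue difference, signed toward the enriched tissue, was smaller in R6/2 for 85 of 102 striatum-enriched and 54 of 66 cortex-enriched genes. Reversed differences count as smaller here. The median gene kept 58.55% of its wild-type log2 difference on the striatal list and 74.73% on the cortical list. Lists chosen on wild type alone favour genes with a larger difference in wild type, so these counts and shares are partly built in. No list chosen on R6/2 was set beside them, and the size of this tilt was not tested. A difference under 2-fold toward the enriched tissue, reversed ones included, was seen for 31 of 106 striatum-enriched genes in R6/2 and 12 of 114 in wild type. For cortex-enriched genes these counts were 18 of 67 and 1 of 68. At 8 weeks the R6/2 medians were 2.71 and -1.83, further from 0 than at 12 weeks in both lists, with no test of the change. The wild-type medians at 8 weeks, 2.98 and -2.75, were also further from 0 than at 12 weeks. Those wild-type libraries are the ones on which the lists were chosen.

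The levels show in which tissue the lists stood apart between the genotypes. The median striatum-enriched gene lay at 3.68, 3.21 and 3.03 RPKM in the R6/2 striatum libraries and at 5.00, 4.08 and 5.58 RPKM in wild-type striatum, without overlap. In cortex it lay at 1.49, 1.01 and 1.01 RPKM in R6/2 and at 1.26, 0.861 and 1.42 RPKM in wild type, with overlap. The median cortex-enriched gene lay at 4.47, 4.53 and 4.20 RPKM in R6/2 cortex and at 8.02, 7.77 and 5.95 RPKM in wild-type cortex, again without overlap. In striatum it lay at 0.643, 1.56 and 1.90 RPKM in R6/2 and at 2.18, 0.862 and 0.766 RPKM in wild type, where both groups spread widely. Each list was therefore lower in the mutant in its own tissue and mixed with wild type in the other. In these bulk samples, fewer cells of a type and less RNA per cell cannot be told apart.

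**Figure D1:**
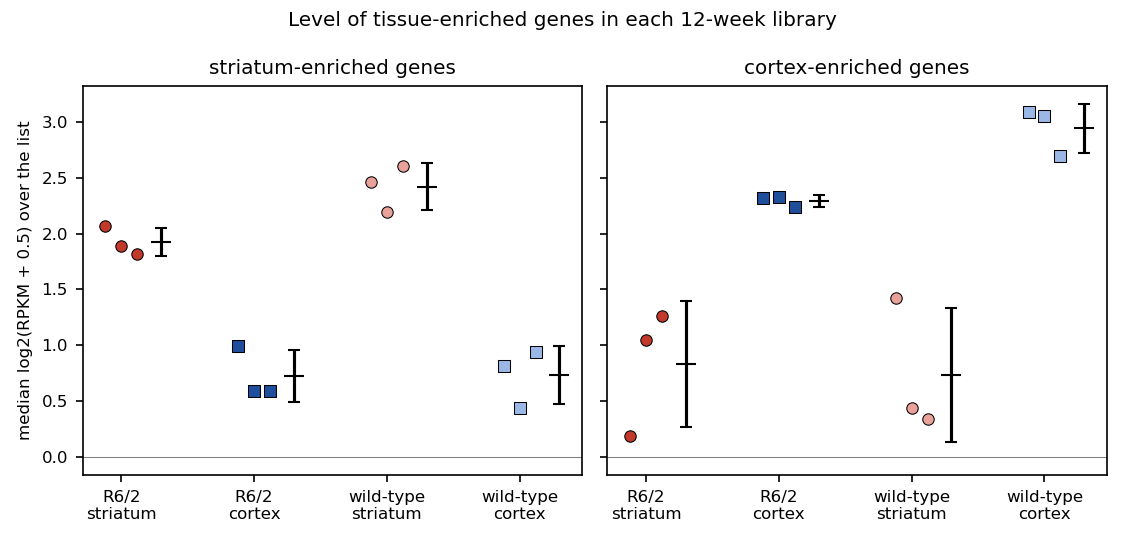
Median log2(RPKM + 0.5) of the 128 striatum-enriched genes (left) and the 70 cortex-enriched genes (right) in each 12-week library. Points are libraries, and the bar beside each group is the mean ± SD of 3. The striatal list separates R6/2 striatum from R6/2 cortex without overlap, and R6/2 striatum lies below wild-type striatum.

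**Figure D2:**
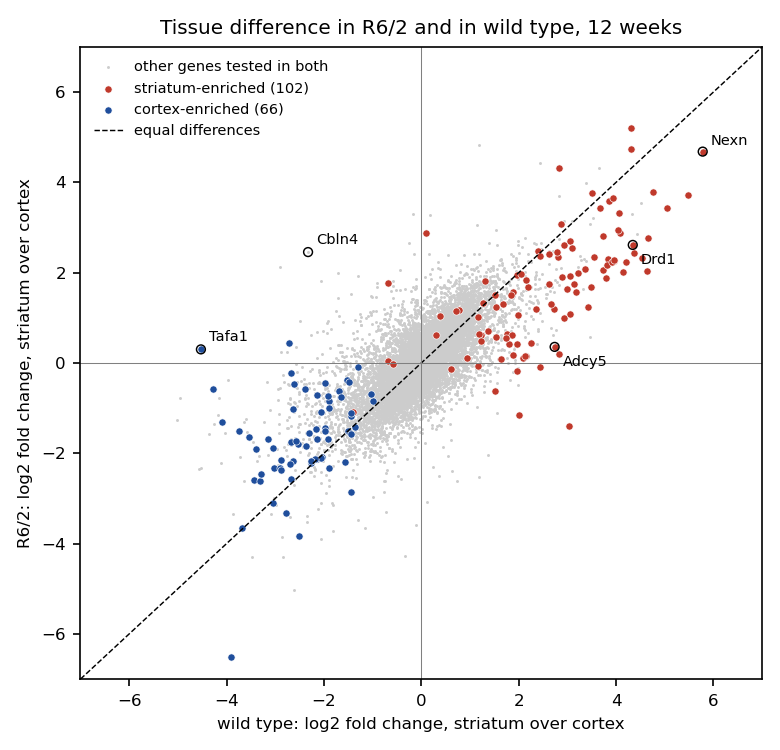
Log2 fold change of striatum over cortex in wild type (x axis) and in R6/2 (y axis) for the genes tested in both, with the 102 striatum-enriched and 66 cortex-enriched genes coloured and the dashed line marking equal differences. Of the coloured genes, 85 striatum-enriched genes lie below the line and 54 cortex-enriched genes above it, with a smaller or reversed difference in R6/2. The lists were chosen on wild type alone, which favours this pattern. Outside the axes falls 1 grey gene.

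Genes shared by both kinds of striatal projection neuron were higher in R6/2 striatum for about as many members as were not called. Of 24 tested, 13 were called higher in R6/2 striatum and none higher in cortex, with a median log2 fold change of 1.33. In wild type 24 of 25 were called, with a median of 2.62. Ppp1r1b, which encodes the dopamine- and cAMP-regulated phosphoprotein DARPP-32, lay at 84.9, 181.1 and 391 RPKM in R6/2 striatum and at 42.9, 23.5 and 20.9 RPKM in R6/2 cortex. The groups did not overlap, and the log2 fold change was 2.94 (SE 0.48, adjusted p = 0.00537), beside 4.04 in wild type. Scn4b, a sodium channel β subunit, lay at 15.2, 23.6 and 49.2 RPKM in striatum and 8.11, 6.05 and 4.62 RPKM in cortex (log2 fold change 2.28, SE 0.38, adjusted p = 0.0057). In wild type Scn4b lay at 287 to 467 RPKM in striatum and 25.2 to 27.5 RPKM in cortex, so its R6/2 striatal libraries overlapped wild-type cortex.

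The signalling genes Pde10a and Rgs9 were called higher in R6/2 striatum, with calls that depended on single libraries. Pde10a, the phosphodiesterase that is concentrated in striatal projection neurons, lay at 15.4, 22.3 and 33.9 RPKM in striatum and 15.7, 8.88 and 7.23 RPKM in cortex. The lowest striatal library lay below the highest cortical library, and the log2 fold change was 1.23 (SE 0.33, adjusted p = 0.0252) beside 3.44 in wild type. This call was lost without cortical replicate 2 or 3 or striatal replicate 2 (adjusted p = 0.0955, 0.098 and 0.0564). Rgs9, which speeds the shut-off of G proteins downstream of dopamine receptors, lay at 11.4, 22.3 and 41.8 RPKM in striatum and 10.4, 6.47 and 4.0 RPKM in cortex (log2 fold change 1.89, SE 0.44, adjusted p = 0.0152). The groups were separated by a narrow gap, and the call was lost without cortical replicate 2 or 3 (adjusted p = 0.0518 and 0.0558).

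Adcy5, the main adenylyl cyclase of striatal projection neurons, lay at 21.8, 34.7 and 47.5 RPKM in R6/2 striatum and 34.1, 25.3 and 25.2 RPKM in R6/2 cortex. These groups overlapped, and the log2 fold change was 0.36 (SE 0.26, adjusted p = 0.313). In wild type, striatum lay at 197, 122 and 191 RPKM and cortex at 29.97, 19.9 and 28.7 RPKM (log2 fold change 2.74). The tissue by genotype term, the R6/2 difference minus the wild-type difference, was -2.40 for Adcy5 (SE 0.34, adjusted p = 0.0226). With the GC and length trend removed, the R6/2 difference was 1.05 and was called (adjusted p = 0.00569), and the term was -2.23 (adjusted p = 0.00111). The Adcy5 term was lost in both limma settings (adjusted p = 0.08 and 0.0899) and in 6 of the 12 fits that left out a library (adjusted p = 0.0503 to 0.0829). Strn, which encodes the calmodulin-binding protein striatin, also lay level between the R6/2 tissues, at 9.56, 11.5 and 12.5 RPKM in striatum and 14.2, 10.8 and 10.5 RPKM in cortex, and its term was -1.81 (adjusted p = 0.0244). The remaining called member was Arpp21, a cAMP-regulated phosphoprotein gene, with a term of -1.69 (adjusted p = 0.0498) and an R6/2 log2 fold change of 0.72 (adjusted p = 0.062). The Strn term was called in 5 of the 12 fits that left out a library and the Arpp21 term in 2. Both terms were lost in both limma settings. The Arpp21 term was also lost with the authors' library totals (adjusted p = 0.0886) and with upper-quartile scaling (0.0536).

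Most direct pathway markers separated the R6/2 tissues. Of 9 tested, 7 were called higher in R6/2 striatum, with a median log2 fold change of 2.42. Wild type had 8 called and a median of 3.35. Drd1 lay at 24.3, 20.2 and 34.1 RPKM in R6/2 striatum and 7.56, 2.43 and 3.56 RPKM in R6/2 cortex (log2 fold change 2.62, SE 0.40, adjusted p = 0.00472). Cortical replicate 1 was the highest cortical library, as it was for most striatal markers named here. In wild-type striatum Drd1 lay at 69.7, 83.8 and 107 RPKM, and the tissue by genotype term of -1.75 was not called (adjusted p = 0.207). Tac1, the precursor of substance P, lay at 172, 126 and 242 RPKM in striatum and 33.8, 13.3 and 14.5 RPKM in cortex (log2 fold change 3.20, SE 0.40, adjusted p = 0.00349). The wild-type value was 3.53, and the term was -0.36 (adjusted p = 0.872), so no difference between genotypes was detectable for this gene.

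Isl1, a transcription factor of direct pathway and cholinergic neurons, lay at 12.6, 8.50 and 5.98 RPKM in R6/2 striatum and 1.02, 0.662 and 0.419 RPKM in cortex (log2 fold change 3.79, adjusted p = 0.0026). Slc35d3, a transporter gene of direct pathway neurons, gave 3.53 (adjusted p = 0.00333). Ebf1, a factor in their differentiation, gave 2.08 (adjusted p = 0.0143). Pdyn, the dynorphin precursor, lay at 15.0, 7.74 and 27.1 RPKM in striatum and 5.58, 1.71 and 2.52 RPKM in cortex. Its log2 fold change of 2.42 (adjusted p = 0.0127) stood beside 2.62 in wild type, and the call was lost without cortical replicate 3 (adjusted p = 0.0514). Chrm4, the muscarinic receptor that opposes dopamine in these cells, was not called, nor was Eya1 (0.86, adjusted p = 0.0547). Chrm4 lay at 3.97, 6.62 and 7.499 RPKM in striatum and 7.76, 8.59 and 8.75 RPKM in cortex. All striatal libraries lay below all cortical ones, the R6/2 difference of -0.40 was not called (adjusted p = 0.215), and the term against wild type was -1.82 (adjusted p = 0.0297). The Chrm4 term was called in 4 of the 12 fits that left out a library. It was lost in both limma settings and with the authors' library totals (adjusted p = 0.0886).

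All 5 indirect pathway genes tested in R6/2 were called higher in striatum, with a median log2 fold change of 2.23. In wild type 6 of 6 were called, with a median of 4.14, so the medians of the genotypes cover unlike sets of genes. Penk, the enkephalin precursor, lay at 153, 175.5 and 271 RPKM in R6/2 striatum and 42.9, 25.6 and 17.4 RPKM in cortex (log2 fold change 2.87, SE 0.35, adjusted p = 0.00319). Wild-type striatum held 696 to 1469 RPKM of Penk. Adora2a, the adenosine receptor gene of these cells, lay at 7.02, 14.7 and 26.8 RPKM in striatum and 5.71, 1.88 and 1.55 RPKM in cortex (log2 fold change 2.45, SE 0.55, adjusted p = 0.0139), beside 4.37 in wild type. Drd2 lay at 6.91, 10.0 and 16.9 RPKM in striatum and 5.70, 2.07 and 0.530 RPKM in cortex. The lowest striatal library lay just above the highest cortical one. The Drd2 log2 fold change was 2.07 (SE 0.66, adjusted p = 0.0436) beside 3.73 in wild type. This call was lost when cortical replicate 2 or 3 or striatal replicate 2 or 3 was left out (adjusted p = 0.068 to 0.121), with DESeq2 (0.0678), with the authors' library totals (0.0552) and with upper-quartile scaling (0.0548). None of the 5 was called in the tissue by genotype test.

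**Figure D3:**
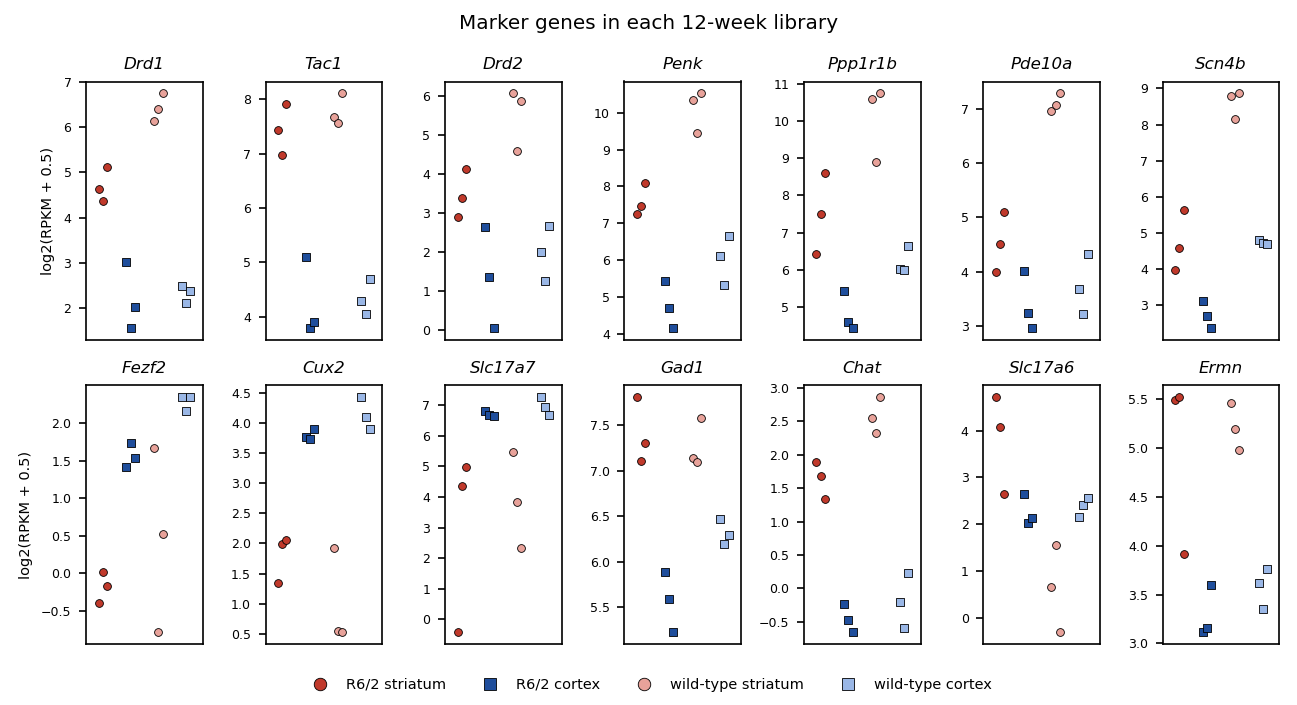
Log2(RPKM + 0.5) of marker genes in each 12-week library, with red circles for striatum and blue squares for cortex, dark for R6/2 and pale for wild type. Drd1 and Penk of R6/2 striatum lie between wild-type striatum and wild-type cortex, whereas Tac1 and Gad1 of R6/2 striatum overlap wild-type striatum.

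Transcription factors of striatal neurons kept part of their pattern. Of 16 tested, 8 were called higher in R6/2 striatum and 1 higher in cortex (median log2 fold change 1.22), against 9 and 0 in wild type (median 1.84). Six3, a homeobox gene of the striatal lineage, gave 3.65 (adjusted p = 0.00831). Foxp2, which marks striatal neurons and deep cortical layers, lay at 26.4, 19.2 and 15.9 RPKM in striatum and 4.73, 2.90 and 3.67 RPKM in cortex, and gave 2.55 (adjusted p = 0.00284). Bcl11b, which is needed for medium spiny neuron differentiation and also marks deep-layer cortical neurons, lay at 28.1, 28.5 and 39.2 RPKM in striatum and 14.7, 9.22 and 7.73 RPKM in cortex (log2 fold change 1.67, adjusted p = 0.0052). The retinoic acid receptor gene Rarb gave 2.17 (adjusted p = 0.0038) beside 3.82 in wild type. Its dimer partner Rxrg gave 1.74 (adjusted p = 0.0135) beside 3.14, a call lost without cortical replicate 3 (adjusted p = 0.0523).

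Foxp1 and Meis2, both enriched in wild-type striatum, were level in R6/2. Foxp1, a forkhead factor of medium spiny neurons, lay at 14.2, 19.1 and 31.4 RPKM in R6/2 striatum and 21.2, 21.7 and 20.7 RPKM in cortex. The log2 fold change was 0.09 (SE 0.25, adjusted p = 0.813), and its sign differed with scaling, reaching -0.33 with the GC and length trend removed. The wild-type value was 1.58, and the term of -1.51 was not called (adjusted p = 0.0578). Meis2, a homeobox factor of striatal precursors, gave 0.35 (adjusted p = 0.381) beside 1.48 in wild type. The member called higher in R6/2 cortex was Nr4a1, an activity-induced nuclear receptor, at 2.21, 3.32 and 6.13 RPKM in striatum and 14.2, 9.41 and 12.1 RPKM in cortex (log2 fold change -1.55, adjusted p = 0.011).

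Genes of dopamine and cAMP signalling, a list that shares Adcy5, Drd1 and others with those above, had 14 of 28 called higher in R6/2 striatum and 1 higher in cortex, with a median of 0.91. In wild type 19 and 2 of 29 were called, with a median of 1.75. The member higher in cortex was Adcy1, the calmodulin-stimulated adenylyl cyclase of cortical neurons, at 5.78, 12.3 and 17.2 RPKM in striatum and 42.3, 42.0 and 44.9 RPKM in cortex (log2 fold change -1.81, adjusted p = 0.00573; -1.78 in wild type). All 3 cortical libraries of R6/2 lay above all 3 striatal ones for Adcy1.

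Cortical transcription factors had more calls toward R6/2 cortex than toward striatum. Of 21 tested, 9 were called higher in R6/2 cortex and 2 higher in striatum (median log2 fold change -1.24). In wild type 12 and 2 were called (median -1.53). Cux2, of the upper layers, lay at 2.04, 3.46 and 3.69 RPKM in striatum and 13.1, 12.9 and 14.4 RPKM in cortex (log2 fold change -2.06, adjusted p = 0.00234). Fezf2, of subcerebral projection neurons, gave -2.59 (adjusted p = 0.00431), and Rorb, of layer 4, gave -1.85 (adjusted p = 0.0125), a call lost without cortical replicate 1 (adjusted p = 0.0514). Tbr1, of corticothalamic neurons, gave -1.12 (adjusted p = 0.032), and this was lost without cortical replicate 1 or 3 or striatal replicate 2 (0.103, 0.0884 and 0.0585) and with the GC and length trend removed (0.0578).

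The general markers of pyramidal neurons were high in cortex in every library, and spread widely in striatum, where none of the 4 below was called in the edgeR fit of all libraries. Slc17a7, the vesicular glutamate transporter of cortical neurons, lay at 0.248, 20.1 and 31.3 RPKM in R6/2 striatum and 111, 100 and 100 RPKM in cortex (log2 fold change -2.57, SE 0.97, adjusted p = 0.0733). Neurod6 (-1.63, adjusted p = 0.072), Neurod2 (-1.68, 0.148) and Emx1 (-1.64, 0.192), transcription factors of the pallial lineage, had the same pattern of libraries. Emx1 was at 0 counts in striatal replicate 1 and at 2.42 and 5.28 RPKM in replicates 2 and 3. Without striatal replicate 1, Slc17a7, Neurod2 and Neurod6 were called, at -2.00, -1.11 and -1.12 (adjusted p = 0.00186, 0.0102 and 0.00709). Slc17a7 was also called without striatal replicate 3 (-3.28, adjusted p = 0.0448) and in limma on log2(RPKM + 0.5) (-3.72, adjusted p = 0.0477), and Neurod6 without striatal replicate 3 (-2.05, adjusted p = 0.0418). Wild-type striatum showed a like spread of Slc17a7, from 4.51 to 44.1 RPKM.

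The list of cortical projection neuron markers, which holds general genes such as Slc17a7 as well as layer markers, was split. Of 22 tested, 6 were called higher in R6/2 cortex and 5 higher in striatum, with a median of -0.19. In wild type 9 and 5 were called, with a median of -0.91. Stx1a, a syntaxin of presynaptic terminals, lay at 6.66, 27.6 and 39.5 RPKM in striatum and 68.8, 120 and 137 RPKM in cortex (log2 fold change -2.10, adjusted p = 0.0155), a call lost without cortical replicate 3 (adjusted p = 0.0514). Calb1, the calcium buffer calbindin that striatal neurons also express, was higher in striatum (1.78, adjusted p = 0.00771), as was Tle4, a corepressor of deep-layer neurons (1.37, adjusted p = 0.00829). Foxp2, which also marks striatal neurons, was another of the 5, so the split depends on the make-up of the list. Lamp5 lay at 22.5, 27.9 and 49.7 RPKM in striatum and 13.6, 26.7 and 22.3 RPKM in cortex. Its R6/2 log2 fold change of 0.75 and its wild-type value of -0.90 were both short of the threshold (adjusted p = 0.0966 and 0.0561). For Rasgrf2, a Ras exchange factor of upper-layer neurons, the R6/2 difference of -1.54 was smaller than the wild-type -4.03, and the term of 2.47 was called (adjusted p = 0.0297). The term was also called for the zinc finger gene Tshz2, at 2.56 (adjusted p = 0.0377). The Rasgrf2 term was called in 4 of the 12 fits that left out a library and the Tshz2 term in 2. Both terms were lost in both limma settings and with the authors' library totals (adjusted p = 0.0524 and 0.0886).

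The enzymes common to inhibitory neurons were higher in R6/2 striatum. Gad1 and Gad2, which make GABA, lay at 223, 137 and 158 RPKM and at 186, 79.5 and 70.7 RPKM in striatum, and at 58.5, 47.7 and 36.9 RPKM and 29.4, 20.7 and 21.0 RPKM in cortex. Their log2 fold changes were 1.97 (adjusted p = 0.00435) and 2.38 (adjusted p = 0.00622), beside 1.03 and 1.88 in wild type. The tissue by genotype term was called for neither. Gad1 and Gad2 were both highest in striatal replicate 1, the library with the highest sums of hypothalamus, septum and thalamus markers. Over the 18 genes of the interneuron list, 5 were called higher in striatum and 2 higher in cortex (median 0.33), against 5 and 6 in wild type (median -0.76). Chodl, a marker of a rare somatostatin cell class, gave 3.08 (adjusted p = 0.0103). Vip, the peptide of a cortical interneuron class, gave -2.13 (adjusted p = 0.0491) and Nos1, the neuronal nitric oxide synthase, -1.02 (adjusted p = 0.0451). The last 2 calls were lost in 4 and 5 of the 6 fits that left out a library, and with the authors' library totals (adjusted p = 0.0574 and 0.052). Vip was also lost with DESeq2 (0.0895), and Nos1 in limma with a pseudocount of 0.1 (0.0551) and with the GC and length trend removed (0.11).

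Markers of cholinergic interneurons, a sparse striatal cell type, had a median tissue difference close to that of wild type, with uneven levels among the R6/2 striatum libraries. Of 5 tested, 4 were called higher in R6/2 striatum (median 3.58), and 5 of 5 in wild type (median 3.86). The 7 measured markers summed to 38.9, 19.0 and 12.9 RPKM in R6/2 striatum and to 29.7, 25.1 and 31.9 RPKM in wild-type striatum. R6/2 replicates 2 and 3 thus lay below every wild-type striatum library, and replicate 1 lay above them. Chat, which makes acetylcholine, lay at 3.19, 2.72 and 2.03 RPKM in R6/2 striatum and 0.353, 0.218 and 0.134 RPKM in cortex (log2 fold change 3.58, SE 0.47, adjusted p = 0.00373). Slc5a7, the choline transporter, gave 4.74 (adjusted p = 0.00373), and Lhx8, a homeobox factor of these cells, gave 5.196 (adjusted p = 0.00349). No R6/2 cortex library held more than 0.507 RPKM of Slc5a7 or 0.237 RPKM of Lhx8. Chat, Slc5a7 and Lhx8 passed the minimum of 0.5 RPKM through striatum alone, so their direction was set by how they entered the test. The tissue by genotype terms were -0.32 for Chat, 0.39 for Slc5a7 and 0.85 for Lhx8, none of them called (adjusted p = 0.919, 0.91 and 0.806). Slc5a7 and Lhx8 were highest in striatal replicate 1, at 14.3 and 10.5 RPKM against at most 5.84 and 3.32 RPKM in the others, the library with the highest sums of hypothalamus, septum and thalamus markers. Both remained called without it.

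Some genes of hypothalamus or septum were higher in R6/2 striatum than in R6/2 cortex, with their highest summed level in that same library. Of 8 hypothalamus or septum genes tested, 4 were called higher in striatum and none higher in cortex, with a median of 2.53. In wild type 5 were tested and none was called, with a median of 0.09, so the 2 medians cover unlike sets of genes. Irs4, an insulin receptor substrate of hypothalamus, lay at 6.73, 0.590 and 0.391 RPKM in striatum and at 0.0383 to 0.102 RPKM in cortex (log2 fold change 5.40, SE 1.12, adjusted p = 0.0105). The Irs4 call was lost in limma, with 1.75 at a pseudocount of 0.5 (adjusted p = 0.0897) and 2.98 at 0.1 (adjusted p = 0.0505). Dgkk, a diacylglycerol kinase, gave 5.11 (SE 0.97, adjusted p = 0.00838). No R6/2 cortex library held more than 0.102 RPKM of Irs4 or 0.267 RPKM of Dgkk. Both genes passed the minimum of 0.5 RPKM through striatum alone, so their direction was set by how they entered the test. The listed peptide genes of hypothalamus were split. Avp had 0 counts, Oxt and Hcrt 1 each, Agrp and Ghrh 2 each and Pmch 12 in the 3 striatal libraries together. Gal lay at 5.15, 0.416 and 0 RPKM in striatum and at most 0.327 RPKM in cortex. Trh lay at 5.35, 0.947 and 0.788 RPKM in striatum and at most 1.57 RPKM in cortex. Pomc, 1 of the 4 called genes, lay at 1.24, 1.40 and 7.66 RPKM in striatum and at most 1.13 RPKM in cortex. Of 8 thalamus genes tested, 2 were called higher in striatum and 1 higher in cortex, with a median of 0.04, and their sum in striatal replicate 3 lay below all 3 cortical sums. Slc17a6, the glutamate transporter of thalamic and other subcortical neurons, lay at 25.7, 16.4 and 5.81 RPKM in R6/2 striatum and 5.74, 3.57 and 3.87 RPKM in cortex (log2 fold change 1.99, SE 0.49, adjusted p = 0.018). In wild type it was lower in striatum than in cortex at every library (0.315 to 2.46 against 3.95 to 5.39 RPKM), but neither that difference (-1.71, adjusted p = 0.0817) nor the term (3.69, adjusted p = 0.121) was called. Tcf7l2, a thalamic transcription factor, gave 2.11 (adjusted p = 0.0322), which fell short without striatal replicate 1 (0.92, adjusted p = 0.0982) and without any single cortical library (adjusted p = 0.0781 to 0.0998). The call on Slc17a6 was lost without cortical replicate 2 or 3 (adjusted p = 0.0595 and 0.0646). Whether region markers in the striatal libraries come from neighbouring tissue or from striatal cells was not tested.

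Myelin genes were higher in R6/2 striatum, by a median close to that of wild type. Of 13 myelin genes tested, 7 were called higher in striatum (median 1.39), against 10 of 13 in wild type (median 1.31). Ermn, a cytoskeletal protein of oligodendrocytes, lay at 44.6, 45.5 and 14.6 RPKM in R6/2 striatum and 8.16, 8.43 and 11.7 RPKM in cortex (log2 fold change 2.01, SE 0.41, adjusted p = 0.00991). Aspa, which breaks down N-acetylaspartate for myelin lipid, gave 1.81 (adjusted p = 0.018), but 0.86 with the GC and length trend removed (adjusted p = 0.122). The call on Aspa was also lost without cortical replicate 1 or 3 or striatal replicate 2 (adjusted p = 0.0579 to 0.0739). Of 12 microglial genes, 5 were called higher in striatum (median 0.20) and 4 in wild type (median 0.39). Siglech gave 1.46 (adjusted p = 0.00472). P2ry12, the purinergic receptor of resting microglia, gave 1.56 (adjusted p = 0.0161), and this was lost with the GC and length trend removed (0.74, adjusted p = 0.0693) and without striatal replicate 2 or any single cortical library (adjusted p = 0.052 to 0.0623). Of 14 astrocyte genes, 2 were called higher in striatum and 1 higher in cortex. The latter was Slc1a2, the main glutamate uptake carrier, at 15.4, 29.1 and 21.4 RPKM in R6/2 striatum and 101, 156 and 153 RPKM in cortex (log2 fold change -2.56, SE 0.27, adjusted p = 0.00234; -1.35 in wild type). Unc13c, a gene of synaptic vesicle priming that a list of regional astrocyte markers holds, gave 2.66 (adjusted p = 0.00234).

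Markers of the meninges were higher in R6/2 cortex. Of 10 tested, 6 were called higher in cortex and none higher in striatum (median -1.49), against 1 of 9 in wild type (median -0.83). Col1a1, the collagen of fibroblasts, lay at 0.194, 0.0901 and 0.298 RPKM in striatum and 1.62, 3.72 and 1.67 RPKM in cortex (log2 fold change -3.47, SE 0.51, adjusted p = 0.00435). Slc22a6, an organic anion transporter, gave -3.004 (adjusted p = 0.0141). No R6/2 striatum library held more than 0.2055 RPKM of Slc22a6. Col1a1 and Slc22a6 passed the minimum of 0.5 RPKM through cortex alone, so their direction was set by how they entered the test. The 11 markers summed to 68.9, 155 and 105 RPKM in striatum and to 240, 829 and 274 RPKM in cortex, where replicate 2 stood above the others.

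**Figure D4:**
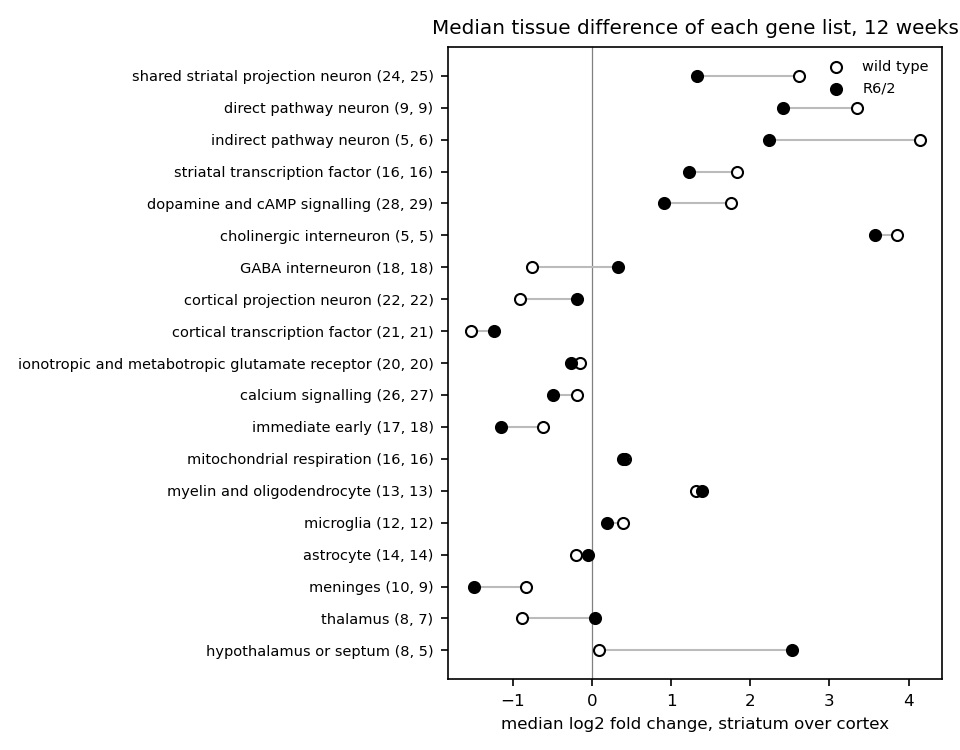
Median log2 fold change of striatum over cortex for gene lists in R6/2 (filled) and wild type (open), with the number of members tested in R6/2 and wild type in parentheses. Lists of striatal projection neurons lie nearer to 0 in R6/2 (1.33 against 2.62 for the shared list), cholinergic and myelin lists lie close together, and hypothalamus or septum genes lie at 2.53 in R6/2. The last list has 8 members tested in R6/2 and 5 in wild type, so its 2 medians cover unlike genes.

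Among receptors and channels, glutamate receptor and calcium signalling genes had more calls toward cortex than toward striatum. Of 20 glutamate receptor genes, 8 were called higher in R6/2 cortex and 1 higher in striatum (median -0.26), against 4 and 2 in wild type (median -0.15). Grin2a, an NMDA receptor subunit, lay at 0.128, 0.471 and 0.447 RPKM in striatum and 4.03, 3.16 and 3.20 RPKM in cortex (log2 fold change -3.23, SE 0.41, adjusted p = 0.00349). Grin2a passed the minimum of 0.5 RPKM through cortex alone, so its direction was set by how it entered the test. Gabbr2, a GABA-B receptor subunit, gave -2.02 (adjusted p = 0.0026), and Gabrg1, a GABA-A receptor subunit, gave 2.42 (adjusted p = 0.0104). The GABA receptor list had 4 of 15 called higher in striatum and 1 higher in cortex. Of 26 calcium signalling genes, 9 were called higher in cortex and 3 higher in striatum (median -0.50), against 5 and 10 of 27 in wild type (median -0.19). Cacna1g, a T-type calcium channel, gave -2.16 (adjusted p = 0.00234). Potassium channels were split, with 7 of 23 higher in cortex, such as Kcnh7 (-2.17, adjusted p = 0.00507), and 5 higher in striatum, such as Kcnab1, a β subunit (1.94, adjusted p = 0.00371). Htr2c, a serotonin receptor that is abundant in choroid plexus and basal forebrain, gave 2.02 (adjusted p = 0.014), a call lost without cortical replicate 3 (adjusted p = 0.054).

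Immediate early genes, which neurons switch on with activity, were called higher in R6/2 cortex for 6 of 17 and higher in striatum for none (median -1.15), against 4 and none of 18 in wild type (median -0.62). Nr4a3 gave -2.60 (adjusted p = 0.0147) and Ier2 gave -2.23 (adjusted p = 0.0135). These calls were lost without cortical replicate 1 (Nr4a3, adjusted p = 0.0673) and cortical replicate 3 (Ier2, adjusted p = 0.0744). Respiratory chain genes leaned to striatum, with 6 of 16 called and none higher in cortex (median 0.39), close to the wild-type 5 of 16 (median 0.42). Cycs, cytochrome c, gave 1.54 (adjusted p = 0.00719). Cox5a, of cytochrome oxidase, gave 1.37 (adjusted p = 0.00929), which the removal of the GC and length trend brought to 0.60 (adjusted p = 0.0586). Enzymes that add or remove histone H3 lysine 4 methylation were called higher in cortex for 4 of 11, among them Setd1a (-1.25, adjusted p = 0.0127) and Kmt2b (-1.16, adjusted p = 0.0115). Kmt2b was at -0.29 with the GC and length trend removed (adjusted p = 0.18), and the Setd1a call was lost without cortical replicate 3 (adjusted p = 0.0514). Mouse Htt, the gene of the disease, was named outside the rule after its values were seen, and lay at 3.10, 5.91 and 4.43 RPKM in R6/2 striatum and 16.8, 14.5 and 13.2 RPKM in cortex (log2 fold change -1.66, SE 0.24, adjusted p = 0.00435). In wild type the difference was -0.86, and the term of -0.81 was not called (adjusted p = 0.481).

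The genes with the largest called differences were taken among those with at least 5 RPKM in the higher tissue and no overlap. On the striatal side some of them were highest in replicate 1. Nexn, an actin-binding protein gene, lay at 35.1, 35.2 and 81.4 RPKM in R6/2 striatum and 2.23, 1.95 and 1.97 RPKM in cortex (log2 fold change 4.68, SE 0.34, adjusted p = 0.000848). It was 5.78 in wild type. Nts, the neurotensin precursor, lay at 68.1, 21.5 and 13.8 RPKM in striatum and 2.72, 0.873 and 1.76 RPKM in cortex (log2 fold change 4.43, adjusted p = 0.00477), again highest in striatal replicate 1. Gpr101, an orphan receptor, had the same order of striatal libraries, at 19.8, 5.99 and 2.68 RPKM, and a log2 fold change of 4.83 (adjusted p = 0.00734). Replicate 1 is the striatal library with the highest sums of hypothalamus, septum and thalamus markers. Whether the RNA of Nts and Gpr101 came from striatal neurons was not tested. Rpl39 and Rpl22l1, ribosomal protein genes with near-identical copies in the genome, gave 3.996 and 3.70, and these values are uncertain because the handling of reads that fit several places is unknown here.

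On the cortical side, Cpne9, a copine, lay at 0.302, 0.209 and 0.639 RPKM in striatum and 4.66, 7.82 and 6.17 RPKM in cortex (log2 fold change -3.90, SE 0.41, adjusted p = 0.00234). Ksr2, a scaffold of the MAP kinase pathway, gave -3.58 (adjusted p = 0.00953) beside -0.11 in wild type, where the striatal libraries spread from 0 to 8.28 RPKM, and the term was not called (adjusted p = 0.422). Kcnk9, a two-pore-domain potassium channel, gave -2.995 (adjusted p = 0.00436), with a wild-type value of -3.02. Plec, a large cytoskeletal linker, gave -3.13 (adjusted p = 0.011), and -2.06 with the GC and length trend removed.

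The test of tissue by genotype called 33 of 11768 genes (0.28%), 23 with a positive term and 10 with a negative one, and 1162 had an unadjusted p under 0.05. Only 1 gene, Tafa1, was called in every fit that left out a library. Left-out libraries moved the count from 1 to 78 genes, and limma on log2(RPKM + 0.5) called 1 gene. Of 19 genes named for this term, 18 lost the call in limma and 12 with the authors' library totals. Tafa1, a secreted chemokine-like protein gene, lay at 3.69, 4.46 and 4.21 RPKM in R6/2 striatum and 5.01, 2.50 and 3.09 RPKM in R6/2 cortex. Tafa1 in wild-type striatum lay at 0.586, 0.179 and 0.485 RPKM and wild-type cortex at 11.1, 10.1 and 7.80 RPKM. Tafa1 was thus cortical in wild type and level between the tissues in R6/2, with a term of 4.80 (SE 0.47, adjusted p = 0.000588). Its R6/2 log2 fold change was 0.30 (adjusted p = 0.445), and -0.27 with the GC and length trend removed.

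Of the tissue-enriched genes, the term was called for 3 on the striatal list and for 1 on the cortical list. The former were Adcy5, Onecut2 (a cut homeobox factor) and Tbc1d8 (a Rab GTPase-activating protein gene), with terms of -2.40, -2.54 and -2.18, and the latter was Tafa1. Onecut2 lay at 1.62, 1.63 and 1.48 RPKM in R6/2 striatum and 2.47, 1.23 and 1.63 RPKM in R6/2 cortex. Wild-type striatum lay at 2.07 to 3.46 RPKM of Onecut2, above every R6/2 striatal library, and wild-type cortex at 0.402 to 0.731 RPKM. Tbc1d8 lay at 1.51, 2.83 and 3.48 RPKM in R6/2 striatum and 3.63, 3.10 and 2.55 RPKM in R6/2 cortex, and wild-type striatum lay at 8.91 to 9.85 RPKM. Neither gene's R6/2 difference was called. Other negative terms were those of Krt9, Slc22a3 (an organic cation transporter) and Tbc1d16.

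Cbln4, a synaptic organizer, lay at 11.6, 3.32 and 1.73 RPKM in R6/2 striatum and 1.54, 0.957 and 0.856 RPKM in R6/2 cortex. In wild type it lay at 0.562 to 1.31 RPKM in striatum and 3.23 to 6.59 RPKM in cortex. The tissue difference was 2.46 in R6/2 and -2.33 in wild type, each called, and the term was 4.76 (SE 0.85, adjusted p = 0.0377). The R6/2 call on Cbln4 was lost when any single cortical library or striatal replicate 1 was left out (adjusted p = 0.0543 to 0.0785). Grik1, a kainate receptor subunit, lay at 7.44, 4.03 and 3.01 RPKM in R6/2 striatum and 3.08, 2.50 and 2.70 RPKM in R6/2 cortex. Wild-type striatum lay at 0.367 to 0.981 RPKM, below every R6/2 striatal library, and the term was 3.40 (adjusted p = 0.0244). The potassium channel gene Kcnj16, the oxytocin receptor gene Oxtr and the little-described Tmem200a, Tmem215 and Vwc2l were called in the same direction.

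**Figure D5:**
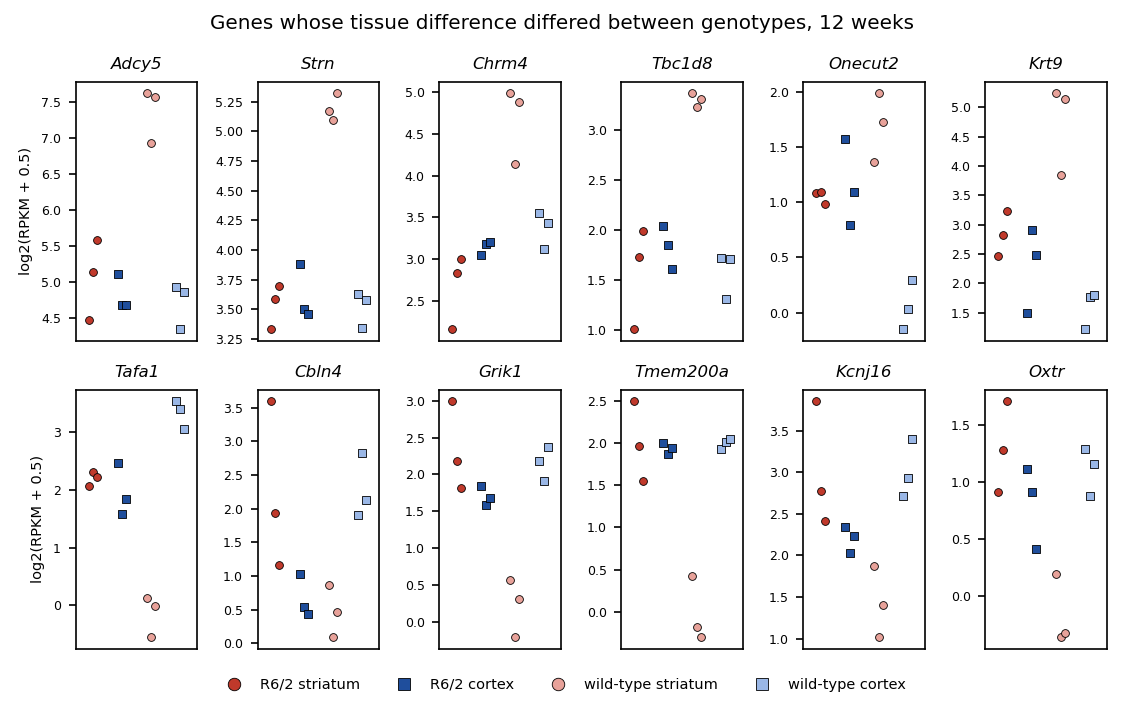
Log2(RPKM + 0.5) in each 12-week library of genes whose tissue difference differed between genotypes in the edgeR test, with symbols as in the plot of marker genes. In the top row R6/2 striatum lies below wild-type striatum for Adcy5, Strn, Chrm4, Tbc1d8, Onecut2 and Krt9, and in the bottom row R6/2 striatum lies above wild-type striatum.

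A called difference pointed in opposite directions in the genotypes for 11 genes, 8 of them higher in striatum in R6/2 and higher in cortex in wild type. The other 3 were higher in cortex in R6/2 and higher in striatum in wild type: Tbc1d16, Grm5 and Itpr1, which are named because the set is small. Grm5, a metabotropic glutamate receptor, lay at 1.90, 2.79 and 2.64 RPKM in R6/2 striatum and 5.31, 4.24 and 3.77 RPKM in cortex (log2 fold change -0.79, adjusted p = 0.0292; 0.82 in wild type). Itpr1, the inositol trisphosphate receptor, lay at 23.7, 34.2 and 46.2 RPKM in R6/2 striatum and 53.2, 60.6 and 58.8 RPKM in cortex (-0.66, adjusted p = 0.0458). Wild-type striatum held 115 to 143 RPKM of it. For Grm5 and Itpr1 the term itself was not called (adjusted p = 0.0792 and 0.0807), and the Itpr1 call was lost with the GC and length trend removed (-0.30, adjusted p = 0.312). Leaving out any single cortical library ended both R6/2 calls (adjusted p = 0.0624 to 0.0931 for Grm5 and 0.0856 to 0.146 for Itpr1), as did leaving out striatal replicate 2 (0.0531 and 0.113). The R6/2 call on Tbc1d16 (-0.89, adjusted p = 0.019) was lost without any single cortical library (adjusted p = 0.0594 to 0.0712) and with the GC and length trend removed (-0.40, adjusted p = 0.187).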

How the data were processed

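RNA of 24 samples was sequenced as strand-specific paired ends after oligo(dT) selection, on 2 kinds of instrument with unequal read lengths, per the labels' protocols, which do not say which library was read on which. The submitters' processing notes list Bowtie, DESeq and mm9. For the counting program, its strand setting and reads that fit several places, the choice is not given in the sources consulted. The deposited files give, for each of 18669 genes, whole-number counts, the gene length the authors used, and RPKM, which the authors scaled to library totals that exceed the counts assigned to genes. The 3 replicates per group are as the labels number or list them. The 8 columns of the series tables that name no sample here were not used.

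Counts were fitted with edgeR 4.0.16 in R 4.3.3 (TMM scaling, quasi-likelihood test, Benjamini-Hochberg adjustment over all genes tested, threshold 0.05), separately for each genotype and in 1 model of all 4 groups for the tissue by genotype term. Genes needed a mean of at least 0.5 RPKM over the libraries compared. A gene with a mean below this minimum in 1 tissue entered through the other tissue alone, which set its direction. Standard errors are the log2 fold change divided by the root of the F statistic. Counts in genes ran from 15.9 to 47.7 M in the 6 R6/2 libraries. The scripts were tested on simulated data. Symbols of 18594 gene IDs came from RefSeq and 75 from the deposited tables.

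Genes were named by rule: the 8 largest differences per direction among called genes without overlap and with at least 5 RPKM in the higher group, the 2 largest called per direction in each of 38 gene lists, 34 marker genes called or not, the 8 largest called tissue by genotype terms per direction with at least 2 RPKM in a group, and the 6 largest per direction among tissue-enriched genes. Genes that the rule names but that are withheld here are not reported. Of 486 listed genes, 464 matched the files. The comparison, the lists and the marker genes were chosen with earlier results of these data known. The alternatives were DESeq2 1.42.0, limma 3.58.1 on log2(RPKM + 0.5) and log2(RPKM + 0.1), the authors' library totals, upper-quartile scaling, a correction of every library for GC content and gene length (termed the GC and length trend), other expression minimums, other list rules, and leaving out each library.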

Additional observations from a re-analysis of the deposited data

Results flagged for a closer look

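The tissue difference differed between R6/2 and wild type for 19 named genes by edgeR's test of the difference itself, given here as the R6/2 log2 difference minus the wild-type one. The negative values were those of the striatal signalling genes Adcy5 (-2.40), Strn (-1.81), Arpp21 (-1.69) and Chrm4 (-1.82), and of Krt9 (-2.89), Onecut2 (-2.54), Tbc1d8 (-2.18), Slc22a3 (-2.10) and Tbc1d16 (-1.84). The positive values were those of the cortical neuron markers Rasgrf2 (2.47) and Tshz2 (2.56), of the secreted or synaptic genes Tafa1 (4.80) and Cbln4 (4.76), of the receptor and channel genes Grik1 (3.40), Kcnj16 (2.88) and Oxtr (2.71), and of Tmem215 (4.16), Tmem200a (2.98) and Vwc2l (3.11). Tafa1 was the 1 gene of the 19 that was called under every alternative.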

How the results depend on the processing

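Of 79 named genes called in R6/2, none changed sign under an alternative, 66 were called under every alternative that kept all libraries, and 52 under every alternative. These genes were named mostly for large called differences or as markers, so they do not stand for all calls. Of all 3072 calls, 1667 were made again with the GC and length trend removed and 792 in every fit that left out a library. The number of R6/2 calls (3072) ran from 939 to 3988 when 1 library was left out and was within 1.5 times of its value otherwise. The wild-type number (2352) ran from 759 to 3368. The tissue by genotype number (33) was 185 with DESeq2, 1 with either limma setting, 13 with the authors' library totals and 129 with the GC and length trend removed, and 1 to 78 without 1 library. The median of the striatum-enriched list (1.71) was 1.00 for a 2-fold list, 2.27 for an 8-fold list, 1.95 with at least 2 RPKM, 1.30 with limma, and 1.58 to 1.98 without 1 library. An 8-fold list held 33 called genes in place of 65. The median of the cortex-enriched list (-1.67) was -0.97 for a 2-fold list, -2.12 for an 8-fold list, -1.61 with at least 2 RPKM, -1.53 with limma, -1.54 with the GC and length trend removed, and -1.96 to -1.43 without 1 library. Its number called (38) was 105 and 11 for the 2-fold and 8-fold lists, and 24 to 45 without 1 library. The cause of these shifts was not tested, beyond the change of list or of libraries itself.

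Uncalled R6/2 differences changed sign for Strn, Chrm4, Foxp1, Tafa1, Tmem200a, Onecut2 and Tbc1d8. With the GC and length trend removed, Chrm4 was at 0.098, Foxp1 at -0.33, Tafa1 at -0.27, Onecut2 at 0.093 and Tbc1d8 at 0.16. Foxp1 was also at -0.048 and -0.050 in the limma settings with pseudocounts of 0.5 and 0.1, and at -0.0036 with upper-quartile scaling. Without 1 library, Strn ran from -0.098 to 0.15 (0.040 without striatal replicate 1), Foxp1 from -0.20 to 0.26, Tmem200a from -0.17 to 0.51, Onecut2 from -0.31 to 0.23 (0.0064 without striatal replicate 3) and Tbc1d8 from -0.39 to 0.048. No paired analysis was possible because no number in the sample names occurs in both tissues at 12 weeks. Whether these numbers identify mice is not said. At 8 weeks, where numbers are shared, choosing the lists with the number as a replicate block gave medians of 2.04 and -1.54.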
